A study of Mus musculus with 7 samples.

Results

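Hira, Dgcr2, Dgcr8, Txnrd2, Gnb1l, Crkl, Ranbp1, Mrpl40 and Zdhhc8 are 9 genes of the segment of mouse chromosome 16 that matches the stretch deleted in human DiGeorge syndrome. They were chosen by name, without Tbx1 itself, and their rows were taken from a table of 27179 genes by gene identifier; all 9 were found. Chromatin from the 1st and 2nd pharyngeal arches of E10.5 embryos of the C57BL/6 strain was immunoprecipitated with an anti-V5 antibody and sequenced (ChIP-seq). The groups were 3 V5 ChIP libraries from embryos homozygous for an allele that adds a Flag-V5-BIO tag to the carboxy end of MOZ (KAT6A), 3 wild-type ChIP libraries from arches with no V5 epitope, which are the negative control, and 1 input library of tagged arches without antibody. Mice homozygous for the tagged allele are viable and fertile, per the series' design text, and nothing in the labels says whether a library came from 1 embryo or a pool.

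MOZ is a histone lysine acetyltransferase that works in a complex with BRPF proteins and is needed for normal development of the heart, aortic arch and face. Mice that lack MOZ have defects that resemble DiGeorge syndrome, and Tbx1, a T-box transcription factor gene of the pharynx, is known as a gene that depends on it. Tbx1 is held to be the main gene behind the heart and arch defects of the deletion, while Crkl, Dgcr8, Hira and others are studied as contributors. A natural question is whether tagged MOZ was enriched over the neighbours of Tbx1.

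The 9 genes lie between positions 17451985 and 18970309 of chromosome 16 in GRCm38.p6, the assembly behind mm10. Crkl (17451985 to 17487440) and Dgcr2 (17840355 to 17891728) are the farthest from Tbx1, at 1094 and 689 kb. Zdhhc8 (18220748 to 18235153), Ranbp1 (18239979 to 18248694) and Dgcr8 (18253948 to 18289251) follow each other closely. Txnrd2 (18426417 to 18479073) and Gnb1l (18497386 to 18566680) come next, and Gnb1l ends only 14.3 kb from the span of Tbx1. On the other side of Tbx1 stand Mrpl40 (18872018 to 18876637) and Hira (18876750 to 18970309). The reads were counted over stretches of 4620 bp in Mrpl40 to 93560 bp in Hira. In 7 of the 9 genes that length is within 1% of the whole gene span, exons and introns together; Crkl, at 96.7%, and Gnb1l, at 98.0%, are slightly shorter. Dgcr8 shares 825 bp with Trmt2a and also holds the microRNA gene Mir1306; reads in shared stretches may have been left uncounted, so its counts are slightly uncertain.

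All 9 genes start in sequence rich in CpG, the dinucleotide C followed by G. In a window from 250 bases before to 50 bases after the start, as RefSeq GRCm38.p6 gives it, the number of CpGs (CG, which reads the same on both strands) ranged from 19 in Gnb1l to 43 in Dgcr8, with a median of 28.0, against a median of 7.0 over 32851 such windows. All 9 windows had at least 50% G and C and an observed-to-expected CpG ratio of at least 0.6, which 33.5% of all windows had. Starts of this kind are typical of broadly expressed genes. For 3 of the 9 genes another gene starts on the opposite strand within 1000 bp: Hira and Mrpl40 point away from each other with starts 113 bp apart, and Ranbp1 is paired in this way with Trmt2a, a tRNA methyltransferase gene. The stretches between the annotated ends of these pairs are shown because each separates 2 genes that point away from each other; CpGs are in capitals, and both read 5′ to 3′ on the strand of the gene named last.
Mrpl40/Hira, chr16:18876638-18876749, plus strand: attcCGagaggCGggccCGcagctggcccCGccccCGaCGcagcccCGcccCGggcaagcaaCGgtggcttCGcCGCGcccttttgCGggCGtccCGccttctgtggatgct
Trmt2a/Ranbp1, chr16:18248695-18248846, minus strand: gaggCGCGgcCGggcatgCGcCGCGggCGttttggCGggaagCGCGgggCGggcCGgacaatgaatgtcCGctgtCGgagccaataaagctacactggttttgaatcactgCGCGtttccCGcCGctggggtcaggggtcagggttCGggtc
The first stretch holds 15 CpGs in 112 bases and the second 19 in 152. The deposited counts cover genes, so these stretches have no counts of their own. Reads that reach from a gene into them may be counted with that gene, as the counting options are not given.

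Library totals ranged from 806648 counts in V5 replicate 1 to 3488745 in the input, and the 9 genes together held between 370 and 1387 counts in a library. Values are given as CPM, counts per 1e6 counts of the library. The reads are genomic DNA, which every cell carries whether or not it expresses a gene, so the labelled tissue cannot be checked from them. No label says that replicates came from separate embryos or litters, so a p-value here sets a difference against the variation of these 3 libraries a group, and that variation may be technical only.

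In none of the 9 genes was the difference between V5 and wild-type libraries larger than the spread between replicates. Of the 8 with enough reads for edgeR's quasi-likelihood test, 0 passed at an adjusted p of 0.05, with adjusted p values from 0.980 to 0.988 over all 14575 genes tested, of which 0% passed. At an unadjusted p under 0.05 there were likewise 0 of the 8, against 4.12% of all genes tested, and DESeq2 and limma-voom gave 0 as well. A positive log2 fold change, meaning more reads in V5, was found in 7 of the 8, against 52.0% of all genes tested, and the median was 0.33, against 0.02. That count rested on V5 replicate 1, since without it 4 of the 8 were positive and the median was -0.07. In none of the 9 genes did all V5 libraries lie above or below all wild-type libraries, a separation that 4.83% and 5.27% of the genes tested had in these directions.

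Hira encodes a histone chaperone that places the variant histone H3.3 into chromatin outside of DNA replication. It is the longest of the 9 and the best counted, with 1265 reads over the 7 libraries. For replicates 1 to 3 there were 126, 87.8 and 88.8 CPM in V5 and 66.7, 96.4 and 87.8 in wild type, with an input of 96.6. V5 replicate 1 was the highest library, and the other V5 libraries lay within the wild-type range. V5 over wild type stood at 0.30 on the log2 scale (SE 0.28; adjusted p = 0.981 in the edgeR test), and the 95% interval, -0.29 to 0.89, corresponds to 0.818-fold to 1.85-fold. Without V5 replicate 1 the value was 0.05. Dgcr8 encodes the RNA-binding partner of Drosha, which cuts primary microRNA transcripts. It had 74.4, 39.5 and 35.6 CPM in V5, against 37.2, 58.0 and 31.9 in wild type, with an input of 59.9. Here too V5 replicate 1 stood highest, with the other V5 libraries inside the wild-type range, and the log2 fold change of 0.26 (SE 0.42) was -0.20 without that library.

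Ranbp1, a cofactor of the GTPase Ran in transport between nucleus and cytoplasm, had the largest fold change of the 9 with all libraries in, and 1 library carried it. The V5 libraries 1 to 3 had 43, 6 and 22 counts, those of wild type 13, 6 and 22, and the input 38. On the CPM scale that is 53.3, 5.27 and 6.69 for V5 and 10.1, 4.52 and 8.78 for wild type, with 10.9 for the input. V5 replicate 1 was thus far above every other library, while V5 replicates 2 and 3 lay within the wild-type range and below the input. The fold change, 1.49 on the log2 scale (SE 0.84; adjusted p = 0.980 in the edgeR test), had a 95% interval from -0.24 to 3.22. It was -0.40 without V5 replicate 1 and 0.10 with limma-voom. Trmt2a, at the other end of the stretch printed above, was looked up after the values of Ranbp1 were seen and had too few reads for the gene-level test. Its V5 counts were 7, 7 and 17 and its wild-type counts 0, 5 and 7, with 5 for the input, or 6.67 ± 1.81 CPM in V5 and 2.19 ± 1.96 CPM in wild type (SD, n = 3 each). V5 replicate 1 was the highest for Trmt2a as well, but by far less. The V5 libraries all lay above the wild-type ones, a separation that 4.83% of the genes tested had. Trmt2a is not among the genes tested, and the share among genes with so few reads was not counted. The separation is given as a description with no test.

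Crkl encodes an adaptor protein that passes signals from growth factor receptors on, in neural crest cells among others. Its V5 libraries had 60.7, 13.2 and 29.2 CPM and its wild-type libraries 31.8, 23.4 and 26.4, while the input had 39.8. The V5 libraries spanned the wild-type range on both sides, with replicate 1 above and replicate 2 below it. Its log2 value of 0.37 (SE 0.53) for V5 over wild type was -0.35 without V5 replicate 1. Gnb1l, a WD40-repeat protein related to G-protein beta subunits, is the gene nearest to Tbx1 in this set. There were 44.6, 73.8 and 83.1 CPM in V5, against 45.0, 64.8 and 57.5 in wild type, with an input of 66.8. V5 replicates 2 and 3 lay above all wild-type libraries, and replicate 1 lay just below all of them. Its log2 fold change was 0.30 (SE 0.33), with an interval from -0.39 to 0.99, and stayed between 0.14 and 0.47 whichever library was left out.

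Dgcr2, a membrane protein gene, was the exception among the tested genes, with fewer reads in V5. The V5 libraries held 50.8, 29.0 and 41.7 CPM, the wild-type libraries 45.0, 44.4 and 57.5, and the input 50.7. The groups overlapped, since V5 replicate 1 was above 2 of the wild-type libraries. The log2 fold change was -0.25 (SE 0.39), and its interval of -1.06 to 0.56 corresponds to 0.480-fold to 1.48-fold. Zdhhc8, which encodes an enzyme that attaches palmitate to proteins, had V5 counts of 15, 13 and 42 and wild-type counts of 3, 24 and 21, with 54 for the input. The 3 counts of wild-type replicate 1 set that library apart, at 2.33 CPM, while the other 6 libraries ranged from 8.38 to 18.6 CPM. Its fold change of 0.60 on the log2 scale (SE 0.76) was 0.14 without wild-type replicate 1 and 1.38 without wild-type replicate 2.

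The 2 genes for mitochondrial proteins had differences of opposite sign, and neither exceeded the spread. Txnrd2 encodes mitochondrial thioredoxin reductase, which keeps thioredoxin in its reduced form. The V5 libraries had 22, 140 and 140 counts, the wild-type libraries 55, 46 and 134, and the input 171. As CPM these are 27.3, 123 and 42.6 for V5 and 42.7, 34.7 and 53.5 for wild type, with 49.0 for the input. V5 replicate 2 alone was high and V5 replicate 1 was the lowest of the 7 libraries. Its log2 fold change of 0.56 (SE 0.44; adjusted p = 0.980 in the edgeR test) was -0.27 without V5 replicate 2 and 0.18 with limma-voom. Mrpl40, a protein of the large subunit of the mitochondrial ribosome, was the only one of the 9 below the count filter. Its counts were 3, 2 and 18 in V5 against 8, 8 and 10 in wild type, with 29 for the input, which gives 3.65 ± 1.86 CPM in V5 and 5.41 ± 1.23 CPM in wild type (SD, n = 3 each; two-sided exact permutation p = 0.2). The ratio of the means was 0.675, and the input, at 8.31 CPM (95% Poisson interval 5.57 to 11.9), was above all ChIP libraries. Mrpl40 and Hira thus differed in the sign of their V5 to wild-type difference although their starts are 113 bp apart. The difference in Hira did not pass in the edgeR test. For Mrpl40 the exact permutation test of 3 libraries against 3 cannot give a p below 0.1, so it could not pass at 0.05 whatever the counts. The difference between Mrpl40 and Hira was not tested.

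**Figure D1:**
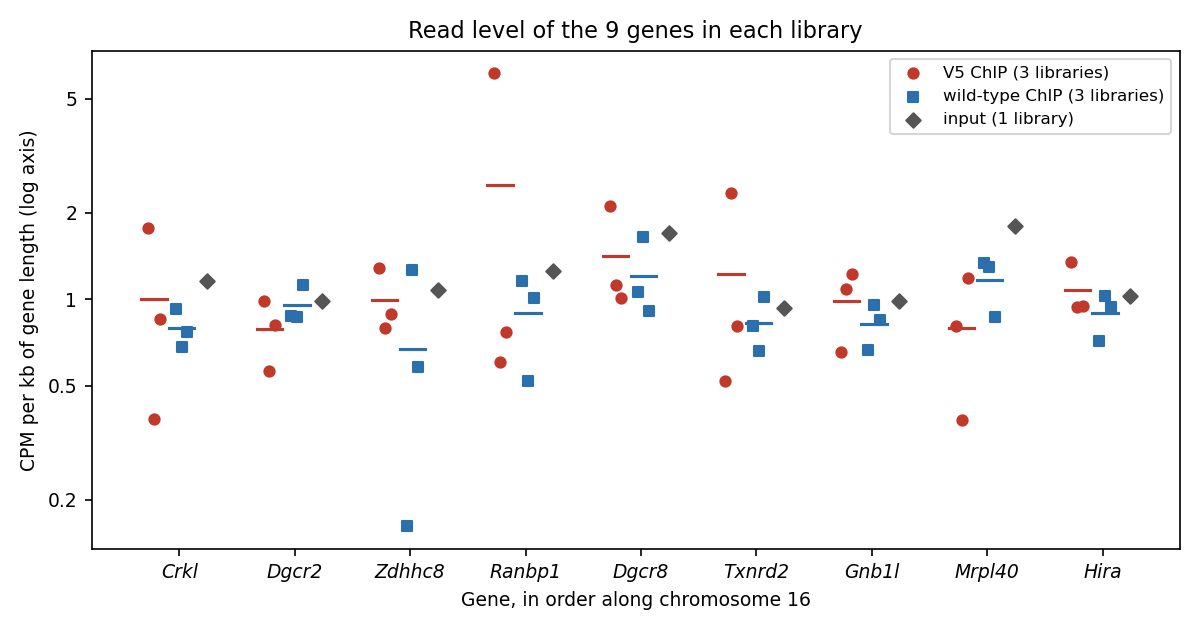
Reads per kb of counted gene length (CPM per kb, log axis) for the 9 genes in order along chromosome 16; circles are V5 ChIP libraries, squares wild-type ChIP libraries, diamonds the input, and lines are group means of 3. V5 replicate 1 in Ranbp1 (6.12), V5 replicate 2 in Txnrd2 (2.34) and wild-type replicate 1 in Zdhhc8 (0.162) stand apart from the other libraries of their groups.

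Levels can be compared between the genes once they are divided by the counted length. In the input the order ran from Mrpl40, at 1.80 CPM per kb, through Dgcr8 (1.70), Ranbp1 (1.25), Crkl (1.16), Zdhhc8 (1.08), Hira (1.03), Dgcr2 (0.988) and Gnb1l (0.983) to Txnrd2 (0.931), less than a 2-fold range. In V5 the means per kb ran from 2.50 ± 3.14 in Ranbp1 through 1.42 ± 0.606 in Dgcr8 and 1.22 ± 0.976 in Txnrd2 to 0.788 ± 0.213 in Dgcr2 (SD, n = 3), and in wild type from 1.20 ± 0.391 in Dgcr8 through 1.17 ± 0.266 in Mrpl40 to 0.667 ± 0.552 in Zdhhc8 (SD, n = 3). Neighbours in the V5 and wild-type orders differed by less than the larger of their SDs. Dgcr8 was high in every kind of library, at the 93.2, 85.4 and 93.8 percentile of genes of 30 to 100 kb in V5, wild type and input.

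The V5 libraries varied more than counting error gives in several of the genes. Their coefficient of variation was 126% in Ranbp1, 80.0% in Txnrd2 and 70.4% in Crkl, where counting alone would give 22.6%, 11% and 16.4%. In the wild-type libraries it was 37.3%, 21.7% and 15.8% in the same genes, against 28.4%, 11.9% and 15.4% from counting. Zdhhc8 showed the opposite order, with 26.7% in V5 and 82.8% in wild type. V5 replicate 1, which has the lowest total of the 7 libraries, was the highest of them in 5 genes (Crkl, Zdhhc8, Ranbp1, Dgcr8 and Hira) and the lowest in Txnrd2 and Gnb1l. V5 replicate 3, the deepest ChIP library, stayed close to the wild-type mean, with a median log2 ratio of -0.03 over the 9 genes and values between -0.26 in Dgcr8 and 0.57 in Gnb1l. How many of all genes were highest or lowest in V5 replicate 1 was not counted, and the part of depth in these differences was not tested.

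**Figure D2:**
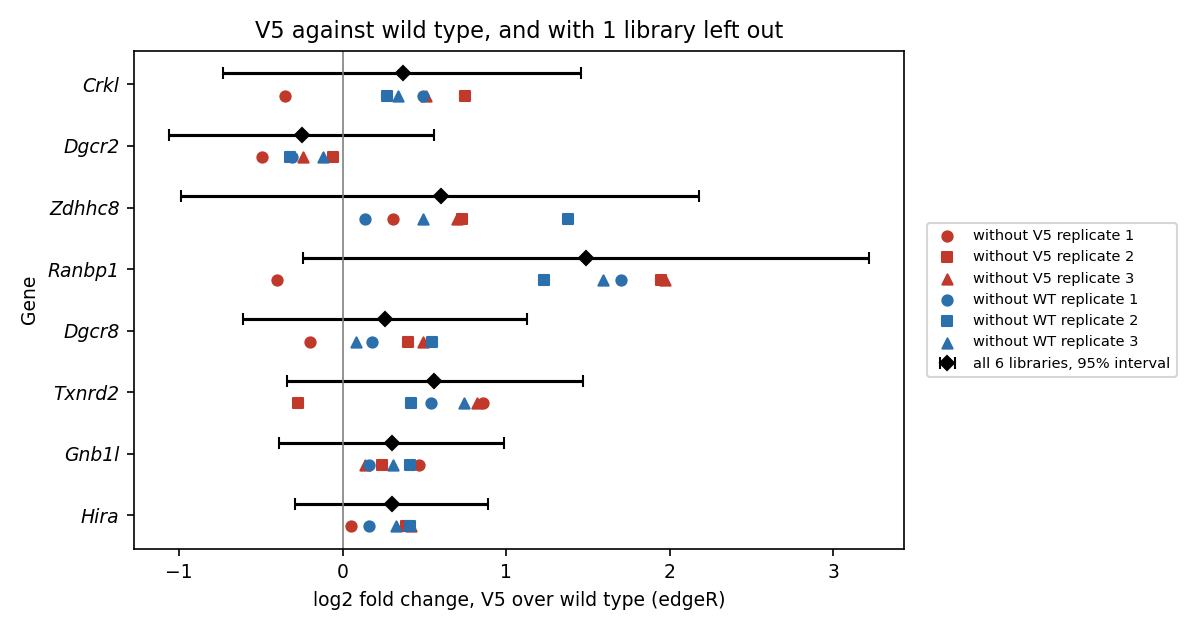
The log2 fold change of V5 over wild type for the 8 tested genes; diamonds with bars are the values from all 6 ChIP libraries with their 95% intervals, and the coloured points below them are the values with 1 library left out (red for V5, blue for wild type). Every interval spans 0, and leaving out V5 replicate 1 takes Crkl to -0.35, Ranbp1 to -0.40 and Dgcr8 to -0.20, while leaving out V5 replicate 2 takes Txnrd2 to -0.27.

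The intervals also show which sizes of difference they cover. For Hira, Gnb1l and Dgcr2 the upper ends, at 1.85-fold, 1.98-fold and 1.48-fold, lie below a 2-fold rise of the reads over the gene in V5. For Ranbp1 and Zdhhc8 they reach 9.35-fold and 4.53-fold, so the intervals cover large differences there. A signal limited to the start of a gene is diluted over these lengths, and more so in Hira than in Ranbp1. Of the 6 genes of 30 to 100 kb 5 were positive with a median of 0.30, where 52.1% of 4982 tested genes of that length were positive, with a median of 0.02. Without V5 replicate 1 Crkl and Dgcr8 turned negative, at -0.35 and -0.20, and Hira fell to 0.05. Gnb1l and Txnrd2 then rose to 0.47 and 0.86.

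Set against the input, the wild-type libraries held fewer reads in all 9 genes, which V5 libraries did in 5. The log2 ratio of the mean CPM to the input had a median of -0.09 for V5 and of -0.44 for wild type over the 9 genes, against 0.04 and 0.00 over 16736 genes with at least 70 counts. These medians rested on single libraries, since V5 stood at -0.51 without V5 replicate 1 and wild type at -0.21 without wild-type replicate 1. The counts of genes below the input were then 7 for V5 and 8 for wild type. A ratio below the input was found in 47.7% of these genes for V5 and in 49.9% for wild type. Every wild-type library was below the input in 6 of the 9 genes (29.6% of all genes), namely Crkl, Ranbp1, Dgcr8, Gnb1l, Mrpl40 and Hira; every V5 library was below it in 1, Mrpl40 (24.5% of all genes). In 0 of the 9 genes did every library of a group lie above it, which 19.4% of all genes showed for V5 and 24.9% for wild type. Past 2-fold stood Ranbp1, at 1.01 on the log2 scale in V5 (9.24% of genes were at least 2-fold above the input) and at -0.44 in wild type, and Mrpl40, at -1.06 in V5 (8.86% were at least 2-fold below) and at -0.56 in wild type. None of the 9 wild-type ratios reached 2-fold, a size that 6.56% of genes had above the input and 7.25% below it. The value of Ranbp1 in V5 was -0.81 without V5 replicate 1. Since the input is a single library that both ratios share, these ratios have no test, and Hira shows the counting error alone, with an input of 96.6 CPM and a 95% Poisson interval of 86.6 to 107.

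Summed over the 9 genes, the libraries held 460, 385 and 346 CPM in V5 and 287, 350 and 336 in wild type, with 398 for the input (95% Poisson interval 377 to 419). V5 averaged 397 ± 57.9 CPM and wild type 324 ± 33.1 CPM (SD, n = 3 each), a ratio of 1.22. The groups overlapped, with V5 replicate 3 below wild-type replicate 2. The ratio was 1.14 without Ranbp1 and Txnrd2, the genes with the largest coefficients of variation in V5. The V5 libraries then had 379, 256 and 297 CPM and the wild-type libraries 234, 311 and 273. For these sums V5 replicate 1 was the only V5 library above the wild-type range, so the ratio of 1.14 rested on it. With all 9 genes summed, V5 replicates 1 and 2 both lay above the wild-type range. The ratio over the 9 genes was 1.13 without V5 replicate 1. The V5 mean was 0.998 times the input and the wild-type mean 0.816 times the input. For the 777 genes of chromosome 16 as a whole both ratios were higher, at 1.08 in V5 and 1.10 in wild type.

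A wider list of 31 other genes of the same segment was used to place the 9, and 29 of them were in the table. Of the 16 with enough reads for the edgeR test none passed. Among these 16 genes 10 had a positive log2 fold change, against 52.0% of all genes tested, with a median of 0.07. The 29 genes together held 518, 584 and 540 CPM in V5 and 443, 557 and 479 in wild type, with 602 for the input, which puts V5 at 0.910 and wild type at 0.819 times the input. The wild-type share of the input was thus nearly the same as for the 9 genes. Of the positive ones Scarf2, a scavenger receptor gene, came first by p, at 2.19 (SE 0.89; adjusted p = 0.980 in the edgeR test), but its counts of 1, 86 and 36 in V5, against 11, 11 and 7 in wild type, with 86 for the input, rested on V5 replicate 2, and without that library the value was 0.07. Rtn4r, the receptor for Nogo, stood at 0.75 (SE 0.56) and Ess2, a nuclear protein gene, at 0.66 (SE 0.75). In the other direction stood Klhl22, an adaptor of a ubiquitin ligase, at -0.92 (SE 0.60; -1.85 without V5 replicate 3), Snap29, a membrane fusion protein, at -0.39 (SE 0.50), the Mediator subunit Med15 at -0.27 (SE 0.40) and Lztr1, an adaptor for the breakdown of RAS proteins, at -0.30 (SE 0.81; -1.31 without V5 replicate 3).

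Tbx1, in the midst of the segment, had a log2 fold change of 2.31 (SE 0.77; adjusted p = 0.980 in the edgeR test), with 16.1, 49.2 and 11 CPM in V5, against 3.10, 9.79 and 2.79 in wild type, and 10.3 for the input. That value was 1.41 without V5 replicate 2, where Ranbp1 stood at 1.95, and 3.09 without wild-type replicate 2. Its highest library was V5 replicate 2, as for Txnrd2, whereas Gnb1l, which lies between them, had its highest value in V5 replicate 3.

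**Figure D3:**
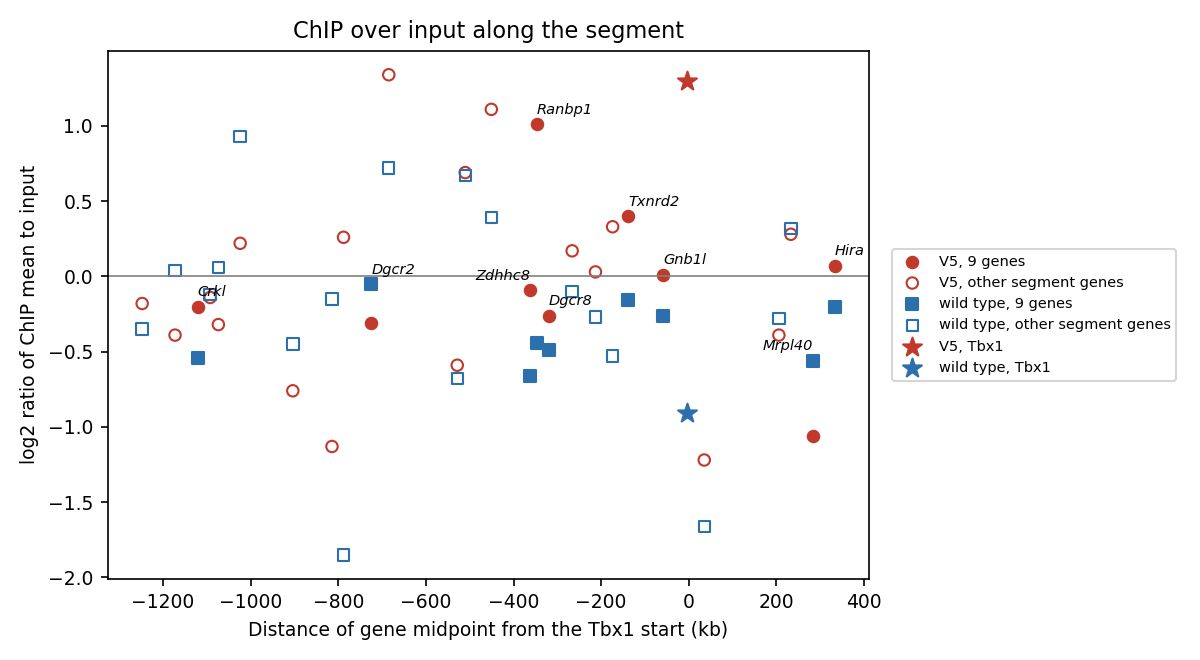
The log2 ratio of the mean ChIP level to the input for genes with at least 70 counts, plotted at the distance of the gene's midpoint from the start of Tbx1 in kb; red is V5 and blue wild type, filled symbols are the 9 genes, open symbols other genes of the segment and stars Tbx1. All 9 blue filled squares lie below 0, between -0.66 and -0.05, while the red filled circles range from -1.06 in Mrpl40 to 1.01 in Ranbp1.

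Among the other genes tested, the 5 whose pattern over the 7 libraries was most like the sum of the 9, by Pearson's r of log2(CPM + 1), were Defb39 (r = 0.987), Fbxl16 (0.981), D630045J12Rik (0.978), Lbr (0.976) and Arhgef2 (0.974). They lie on chromosomes 8, 17, 6, 1 and 3, so none is a neighbour of the 9. Like the sum, by whose pattern they were chosen, all 5 were highest in V5 replicate 1 and lowest in wild-type replicate 1. Lbr, a receptor of the inner nuclear membrane, had 71.9, 43.9 and 25.9 CPM in V5 and 17.8, 29.4 and 29.5 in wild type, with 39.3 for the input. With 7 points and 14575 genes to choose from, high values of r are easily reached, and they are given as a description.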

How the data were processed

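Anti-V5 ChIP-seq libraries and an input library were analysed from the authors' deposited table of raw read counts, 1 row a gene, which also gives each gene's Entrez number and length in bp, per the file headers. Of tools, bcl2fastq, featureCounts and MACS are named in the submitters' processing notes, beside build mm10 and without roles. Aligner, duplicate handling and counting options: not given in the sources used here. No peak list was used. Of 27179 identifiers 25275 matched a RefSeq GRCm38.p6 symbol.

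Groups follow the labels. For V5 against wild type, edgeR 4.0.16 (R 4.3.3) was used with TMM factors, which ran from 0.923 to 1.04, and filterByExpr at a minimum count of 10. The robust quasi-likelihood fit was tested two-sided, with Benjamini-Hochberg adjustment over 14575 genes and a threshold of 0.05, and was checked on simulated data. The input took no part in this fit, whose biological coefficient of variation was 0.387. Standard errors come from the F statistic. Input ratios use mean CPM with a prior count of 0.5. Alternatives were other normalizations, no filter, DESeq2 1.42.0, limma-voom (limma 3.58.1), a replicate block, left-out libraries and left-out genes. Poisson intervals cover counting error only, as duplicate reads are not independent molecules; intervals of fold changes come from the edgeR fit and include the spread between libraries.

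The 9 genes and the wider list were chosen with earlier results of these data known. The text names the 9 genes, Tbx1, the 4 genes of the wider list with the smallest p in each direction, of which 1 is not reported here, and the 5 genes of most similar pattern; Trmt2a, the sums without Ranbp1 and Txnrd2 and the counts below the input with 1 library left out were added after values were seen.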

Additional observations from a re-analysis of the deposited data

How the results depend on the processing

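Of 104 values for the 8 tested genes under the alternatives, 100 kept their sign and their side of the threshold, 4 changed sign and 0 passed (lowest adjusted p 0.475). With 1 library left out the log2 fold change ranged from -0.35 to 0.75 in Crkl, -0.40 to 1.97 in Ranbp1, -0.20 to 0.55 in Dgcr8, -0.27 to 0.86 in Txnrd2, -0.76 to 0.01 in Med15 and -1.31 to 0.12 in Lztr1, where limma-voom gave 0.09. The median over the tested genes ranged from -0.07 to 0.50, the number of positive ones from 4 to 7, and the positive genes of the wider list from 8 to 13. Without a filter edgeR gave 15 positive of 28 genes, and DESeq2 gave 17 of the 28 it could fit; the cause was not tested.

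The table as a whole gave 0 genes with edgeR, with 600 at an unadjusted p under 0.05; DESeq2 also gave 0, with 1048. There were 9 genes without a filter and 4 with limma-voom (Chl1, Sgcz, Skint3 and Skint6). Leaving out 1 library gave 0 to 2 (Chl1 and Rrp9 without V5 replicate 2, Dnah11 without V5 replicate 3). None of these is among the 9 genes. They were looked up after the calls were seen.

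The median log2 ratio of wild type to the input was -0.34 with a prior count of 2 and ranged from -0.38 to -0.21 with 1 library left out, and that of V5 ranged from -0.51 to -0.06; the cause was not tested. The genes below the input numbered 5 to 7 for V5 and 8 to 9 for wild type. The summed ratio of V5 to wild type stayed between 1.13 and 1.30 over 19 alternatives.

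Replicate numbers are shared by both groups, but no label says that they mark a pair. Same-numbered libraries had correlations of 0.0138, 0.0056 and 0.0602 of their deviations over 14575 genes, and not every library correlated best with its own number. With a replicate block 1 gene passed, which has no symbol here, and Ranbp1 stood at 0.79. Depth limits Mrpl40 most, with 2 to 29 counts in a library.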
